A study of Mus musculus with 32 samples.

Results

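The transcripts of 6 genes that mark formative pluripotency, *Otx2*, *Pou3f1*, *Foxd3*, *Sox3*, *Zic2* and *Pim2*, were followed in mouse embryonic stem (ES) cells leaving the naive state and in mutants lacking *Etv5*, *Rbpj* or *Tcf7l1*. The 6 genes were taken by name from a table of 51826 genes, where each has 1 row, and all 6 passed the filter on low counts that left 18892 genes to test. They were named as known markers, with no threshold on a measured value but with earlier results of these data known.

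Naive ES cells correspond to the epiblast of the embryo before implantation and are held in self-renewal by inhibitors of MEK and GSK3. When the inhibitors are withdrawn the cells lose naive factors and gain transcription factors of the epiblast after implantation, an intermediate called formative, before they commit to a lineage. Of the 6 genes, *Otx2* encodes a homeodomain factor and *Pou3f1* a POU-domain factor that act in the epiblast after implantation. *Foxd3* encodes a forkhead factor, *Sox3* a SOX factor related to *Sox2*, and *Zic2* a zinc finger factor, all of which are also used in the early neural lineage or its derivatives. *Pim2* encodes a serine/threonine kinase that favors growth and survival.

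RNA was sequenced from 32 libraries in 11 conditions. All cells carry Rex1-GFPd2 (RGd2), a reporter with a short-lived GFP at the *Rex1* locus, and the RGd2 cells with no further mutation are the controls. They were measured in 2i (MEK inhibitor PD with GSK3 inhibitor CH), in 2i through passage 5 (2i-p5), in CH alone through passage 2 (CHp2), and 16 h and 72 h after transfer from 2i to basal N2B27 medium (N16h and N72h). *Rbpj*-KO and *Etv5*-KO cells were measured in 2i and at N16h. Cells lacking both genes (ER-dKO) were measured in CH at passage 5, and cells lacking *Etv5*, *Tcf3* and *Rbpj* (ETR-tKO) in N2B27 at passage 5, with no inhibitor. *Tcf3* is written below by its present symbol, *Tcf7l1*. Each condition had 3 libraries, except *Etv5*-KO at N16h with 2. The study's methods place the missing replicate in RGd2 at N16h, and the labels were followed here. Within a condition every mutant library comes from a different clonal line (c28, c33 and c36 for *Rbpj*-KO, c16, c17 and c1 for *Etv5*-KO with c16 absent at N16h), whereas each RGd2 group holds 2 libraries of the parental line and 1 of a clonal derivative. The study marks some samples as expanded in CH with the cytokine LIF before 2i, among them the RGd2 2i, RGd2 N16h and single-mutant cells, but its methods describe such expansion for all lines, so the history of the other groups is uncertain. N16h was compared with 2i, and N72h and the compound mutants with 2i-p5. By their names, ETR-tKO clones (Tc1)ERc2 and (Tc1)ERc10 share a parent clone, Tc1, and (ETc1)Rc53 has another. No *Tcf7l1*-KO line on its own and no parental culture at passage 5 in CH or N2B27 was analysed here.

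The mutants were made with Cas9 and a pair of guide RNAs per gene, each to a different exon. The 20-base targets are shown because they fix which part of each gene the mutants were designed to lose. Capitals mark the NGG motif next to each target.
Etv5, exon 8: cgcagctccgccaccccttcAGG
Etv5, exon 9: gaaatacccgcctctcatgtAGG
Rbpj, exon 5: tgacctttatccgcttgctgAGG
Rbpj, exon 7: gcttgacagtctgcccgtaaTGG
Tcf7l1, exon 1: tcagctcgtcgttcgctccgAGG
Tcf7l1, exon 3: gagacaggggtccgttggagAGG
All 6 targets lie in coding sequence of GRCm38. Those in *Etv5* are at chr16:22401804-22401823 (minus strand) and chr16:22399336-22399355 (plus strand), 2488 bp apart from outer end to outer end. Those in *Rbpj* are at chr5:53645980-53645999 and chr5:53649718-53649737 (both minus strand) and span 3758 bp. Those in *Tcf7l1* are at chr6:72788844-72788863 and chr6:72788228-72788247 (both plus strand) and span 636 bp.

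Transcripts of the targeted genes were counted first, as a check of the labels. Values are normalised counts, that is counts divided by a size factor from the ERCC spike-ins, RNAs added to each sample. *Etv5* lay between 8772 and 16791 in the RGd2 libraries and between 1112 and 3373 in every library labelled as lacking it. *Rbpj* was 976 to 1249 in *Rbpj*-KO against 3981 to 5097 in RGd2 in 2i, and 2497 to 2797 against 12327 to 12766 at N16h. In ETR-tKO, *Rbpj* was 1559 to 2348 and *Tcf7l1* 29.1 to 120.4, against 2830.2 to 3385 and 463 to 592 in RGd2 2i-p5. The ER-dKO libraries had *Rbpj* counts of 1138, 1307 and 3489. The library labelled ER-dKO ERc9, with 3489, was not below RGd2 2i-p5, and gene-level counts do not show whether the targeted exons were missing. For ER-dKO, the values of the 6 genes and the counts of other formative genes and naive markers are given with and without it. The other marker lists are given with it only.

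Library size ran from 5986857 to 71439411 counts on genes (median 29940141), and spike-ins took 0.991% to 1.52% of all counts. Among replicates of 1 group, counts differed by more than sampling noise in every pair (chi-square per gene 3.39 to 44.3), so no library was taken as a duplicate. The shallowest library was the clonal RGd2 library in 2i, which also had the highest *Pou3f1*, *Foxd3*, *Sox3* and *Zic2* of its group. On the spike-in scale the median gene differed by -0.23 (log2) at N16h against 2i and by -0.35 between 2i-p5 and 2i, while TMM scaling sets these medians close to 0. Markers of pluripotent cells were present: the summed FPKM of *Pou5f1*, *Sox2*, *Sall4*, *Utf1*, *Lin28a* and *Fgf4* was 965 to 1027 at RGd2 N16h. Because these are bulk samples, fewer cells expressing a gene and less RNA per cell cannot be told apart. Nothing in the labels shows that 2 parental libraries of a group came from separate thaws, and p-values measure only the spread between these libraries.

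The 6 genes lie at separate positions of the genome. In GRCm38 coordinates *Otx2* (ENSMUSG00000021848.15) is at chr14:48657679-48667644 on the minus strand and *Zic2* (ENSMUSG00000061524.8) at chr14:122475435-122479852 on the plus strand. *Foxd3* (ENSMUSG00000067261.4) is at chr4:99656299-99658622 and *Pou3f1* (ENSMUSG00000090125.3) at chr4:124656807-124660655, both on the plus strand. *Sox3* (ENSMUSG00000045179.9) is at chrX:60891366-60893430 on the minus strand and *Pim2* (ENSMUSG00000031155.16) at chrX:7878262-7883432 on the plus strand. *Pou3f1* overlaps the antisense gene *Gm2164*, which the strand-specific counting kept apart and which had at most 59 counts in a library. *Foxd3* overlaps *Gm23366* on the same strand, which had 0 counts throughout.

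RefSeq promoters (250 bases before to 50 after a start, GRCm38.p6) were found for 3 of the 6 genes, namely *Otx2* with 4 starts and *Foxd3* and *Pim2* with 1 each, and not for *Pou3f1*, *Sox3* and *Zic2*. They were searched on both strands for letters bound by the families of the deleted factors and of POU3F1: CCGGAA (ETS factors such as ETV5), TGGGAA (RBPJ), CTTTGA (TCF/LEF factors such as TCF7L1) and ATGCAAAT (POU octamer). No match of the 4 was found in the *Otx2* and *Foxd3* windows. The *Pim2* promoter is shown because it held 3 matches, in capitals, and because *Pim2* had the largest range of FPKM among the 6 genes. It covers chrX:7878056-7878355 on the plus strand.
Pim2 promoter: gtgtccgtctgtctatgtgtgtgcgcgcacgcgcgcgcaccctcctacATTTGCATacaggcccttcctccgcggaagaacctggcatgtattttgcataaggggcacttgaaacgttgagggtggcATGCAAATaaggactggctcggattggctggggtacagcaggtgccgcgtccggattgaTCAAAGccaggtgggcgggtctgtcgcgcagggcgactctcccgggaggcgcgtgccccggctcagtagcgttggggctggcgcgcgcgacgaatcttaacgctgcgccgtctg
The 2 POU octamers lie at chrX:7878104-7878111 and chrX:7878183-7878190 and the TCF/LEF letters at chrX:7878242-7878247, none overlapping another. Among all 32851 promoter windows, 1.74% held a POU octamer, 16.0% the TCF/LEF letters, 14.9% the ETS letters and 25.6% the RBPJ letters. Such a match describes the letters and is not evidence of binding.

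Levels of different genes were compared as FPKM (fragments scaled to exon length and to the library's counts on genes). In RGd2 2i, *Zic2* was the highest of the 6 at 27.1 ± 11.6 (SD, n = 3). *Foxd3* followed at 6.29, *Otx2* at 3.67 and *Pim2* at 3.30, while *Sox3* (0.812) and *Pou3f1* (0.177) were below 1. The *Otx2* and *Pim2* libraries overlapped in 2i, and other neighbours in this order did not. At N16h the order was *Zic2* (33.9 ± 4.83), *Otx2* (27.4 ± 1.86), *Foxd3* (16.2 ± 3.18), *Pim2* (10.5 ± 1.38), *Pou3f1* (6.71 ± 1.93) and *Sox3* (1.63 ± 0.743), with no overlap between neighbours. At N72h *Pim2* had become the highest (83.9 ± 2.82), above *Zic2* (39.2 ± 0.848), *Otx2* (33.1 ± 1.78) and *Pou3f1* (17.7 ± 1.31). *Foxd3* (5.22 ± 0.488) and *Sox3* (4.19 ± 0.521) overlapped at the bottom. Thus *Zic2* was abundant in every culture, *Pou3f1* went from nearly undetected to a moderate level, and *Foxd3* was high at N16h and low before and after.

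**Figure D1:**
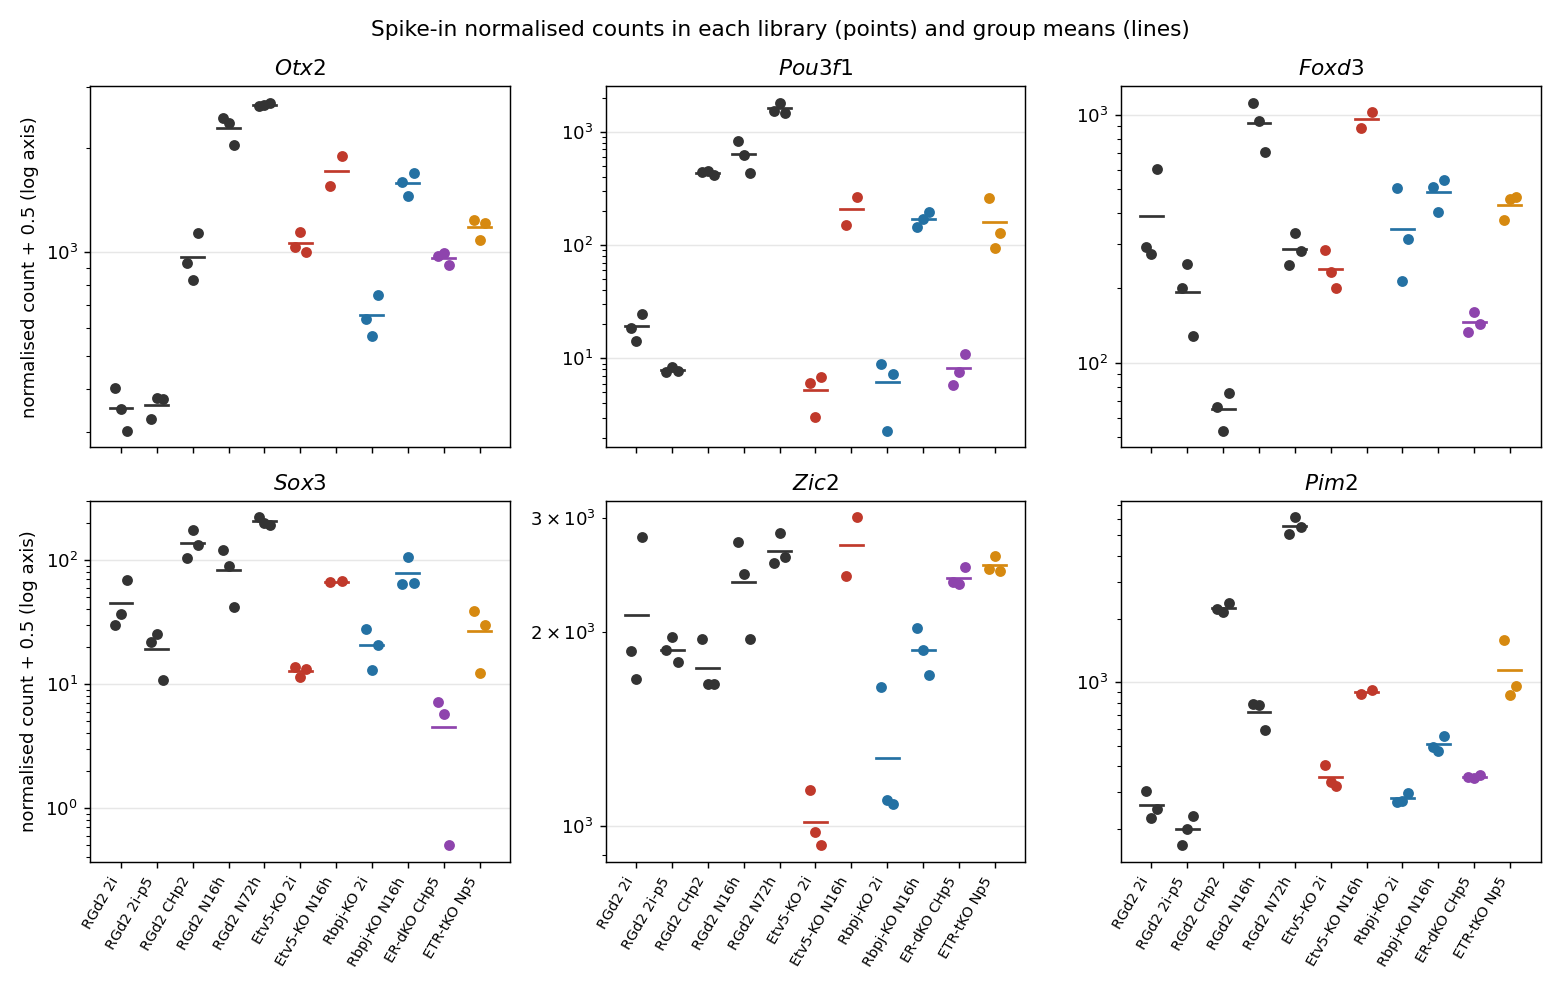
Normalised counts (plus 0.5, log axis) of the 6 genes in each of the 32 libraries, by condition, with points for libraries and lines for group means. *Pou3f1* and *Sox3* reach the lowest values, *Zic2* spans the narrowest range, and *Foxd3* is highest at N16h.

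The question at N16h is which of these genes had risen by 16 h after inhibitor withdrawal. *Pou3f1*, *Otx2*, *Pim2*, *Foxd3* and *Sox3* rose, and *Zic2* did not pass the test. A gene was called at a Benjamini-Hochberg adjusted p under 0.05 in edgeR's quasi-likelihood test if its mean FPKM reached 1 in one of the groups. Shares and medians of all tested genes are over those that reached this FPKM in the comparison. Of them 8.63% were called higher and 37.4% lower at N16h (20.8% and 25.8% with TMM scaling), so the 5 of 6 members called higher stood beside a background of 8.63%.

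*Otx2* had normalised counts of 403, 351 and 303 in 2i and of 2432, 2363 and 2030.2 at N16h. Every N16h library stood far above every 2i library. The log2 fold change was 2.66 ± 0.13 (SE; edgeR adjusted p = 7.31e-20), a 6.46-fold rise of the means. *Pou3f1* went from 17.9, 13.8 and 24.2 to 836, 627 and 436. Its rise, 34-fold, was the largest of the 6 (log2 fold change 5.24 ± 0.33, edgeR adjusted p = 2.43e-16). The clonal library was the lowest of the N16h group for all 6 genes.

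*Foxd3* had 294, 275 and 606 normalised counts in 2i and 1119.7, 944 and 706 at N16h. The groups did not overlap, but the clonal 2i library came near the clonal N16h library. The log2 fold change was 1.34 ± 0.24 (edgeR adjusted p = 1.4e-05). *Pim2* rose from 304.5, 225 and 250.3 to 789.9, 779 and 591, a log2 fold change of 1.47 ± 0.16 (edgeR adjusted p = 1.07e-09), again without overlap.

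*Sox3* was low in 2i (29.6, 35.9 and 68.6) and at N16h was 119.8, 88.3 and 40.9, so the groups overlapped. Its log2 fold change was 1.10 ± 0.38 (edgeR adjusted p = 0.0191). The call was lost without any of 3 libraries: the adjusted p was 0.142 or 0.0876 without either parental 2i library and 0.149 without the first parental N16h library. *Zic2* was already at 1867, 1689 and 2810.2 in 2i and reached 2753, 2461 and 1947 at N16h. The groups overlapped, and the log2 fold change of 0.19 had a 95% interval of -0.10 to 0.48 (edgeR adjusted p = 0.323). Without the shallow clonal 2i library it was 0.43 (adjusted p = 0.00851). Groups did not overlap for 4 members (*Otx2*, *Pou3f1*, *Foxd3* and *Pim2*), beside 9.07% of all tested genes with every N16h library higher. Relative to the median of all genes the changes ranged from 0.42 for *Zic2* to 5.47 for *Pou3f1* (log2).

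The order of rise is that of the size of the change, not of its timing. It was examined by the log2 ratio of neighbouring genes inside each library, which needs no scaling. *Pou3f1* rose more than *Otx2* by 2.34 on the log2 scale and *Otx2* more than *Pim2* by 1.23, and in both cases the ratios of the 3 N16h and the 3 2i libraries did not overlap. *Pim2* and *Foxd3*, *Foxd3* and *Sox3*, and *Sox3* and *Zic2* were not separated, as the ratios of these neighbouring pairs overlapped. Pairs further apart in the order were not compared. With 3 against 3 libraries an exact permutation test cannot give a two-sided p below 0.1, which was its value for each separated pair.

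Other genes of the formative state moved alongside. From a list of 16 (*Fgf5*, *Dnmt3a*, *Dnmt3b*, *Lef1*, *Etv4* and others), 11 were called higher and 1 lower at N16h, with a median log2 fold change of 1.45 beside -0.23 over all tested genes. *Etv4*, an ETS factor related to *Etv5*, led them with 4.48, and the adhesion gene *Cdh2* (N-cadherin) was the gene called lower (-0.75). Of 9 naive markers 7 were called lower and 1 higher, and their summed FPKM went from 901 to 980.0 in 2i to 443 to 449.7 at N16h. Of 8 neural markers 3 were called higher, led by *Pax6*, and 2 lower, led by *Tubb3* (summed FPKM 18.0 to 21.9 against 48.4 to 57.9 in 2i). Of 6 mesendoderm markers 0 were called higher and 2 lower, led by *T*. Of 6 trophectoderm markers 0 were called higher, and *Cdx2* was called lower. The part of these cell types in the values of the 6 genes was not tested.

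At N72h all 6 genes were higher than in 2i-p5, beside 34.2% of tested genes called higher and 22.9% lower (30.5% and 34.9% with TMM scaling). *Pou3f1* had normalised counts of 7.07, 7.89 and 7.20 in 2i-p5 and 1545, 1815 and 1484 at N72h. This was a 219-fold difference of the means, with a log2 fold change of 7.74 ± 0.37 (edgeR adjusted p = 1.3e-20). The raw counts behind the 2i-p5 values were only 3, 6 and 7, and against RGd2 2i the difference was 86.7-fold (log2 fold change 6.59). *Pim2* went from 167, 201 and 232 to 5102, 6099 and 5496. The kinase gene thus rose 27.8-fold, a log2 fold change of 4.77 ± 0.18 (edgeR adjusted p = 3.16e-24).

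*Sox3* was 21.2, 25.0 and 10.3 in 2i-p5 and 221, 199.9 and 192 at N72h. No library overlapped, unlike at N16h, and the log2 fold change was 3.49 ± 0.41 (edgeR adjusted p = 2.77e-09), or 10.8-fold. Against RGd2 2i it was 2.38, or 4.57-fold. *Otx2* went from 328, 377 and 374 to 2631, 2655 and 2699, with a log2 fold change of 2.88 ± 0.13 (edgeR adjusted p = 1.61e-21). Its N72h libraries were the tightest of the 6 genes relative to their mean.

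*Zic2* had 1871, 1960.3 and 1794 normalised counts in 2i-p5 and 2558, 2849.9 and 2609 at N72h. Every N72h library was higher, by a log2 fold change of 0.51 ± 0.14 (edgeR adjusted p = 0.0031). *Foxd3* was 200.3, 248 and 127 in 2i-p5 and 248, 334 and 283 at N72h. The groups met at 248, and its log2 fold change of 0.59 ± 0.25 (edgeR adjusted p = 0.046) was called in only 5 of 13 alternatives. The adjusted p was 0.151 with TMM scaling, 0.0652 with DESeq2 and 0.325 without the clonal 2i-p5 library. It was 0.0736 without the first parental 2i-p5 library, 0.154 and 0.0792 without the second parental and the clonal N72h library, and against the RGd2 2i group the log2 fold change was -0.35. Excepting *Foxd3*, 5 of 6 members had every N72h library above every 2i-p5 library, beside 39.3% of all tested genes.

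Within libraries the order of rise at N72h was *Pou3f1* over *Pim2* (by 2.87, log2), *Pim2* over *Sox3* (1.31), *Sox3* over *Otx2* (0.61) and *Otx2* over *Foxd3* (2.26), with no overlap at any of these steps (exact permutation p = 0.1, the smallest possible). *Foxd3* and *Zic2* were not separated (difference 0.12, exact permutation p = 0.8). The place of *Sox3* turned with the baseline. Against RGd2 2i, the baseline of N16h, *Otx2* (7.56-fold at N72h) came before *Sox3* (4.57-fold), with overlapping ratios (exact permutation p = 0.3), and *Zic2* before *Foxd3* without overlap. *Pou3f1* over *Pim2* (by 2.01) and *Pim2* over *Otx2* (by 1.499) held on that baseline without overlap. By the size of its rise *Otx2* was thus ahead of *Pim2* at N16h and behind it at N72h on either baseline.

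**Figure D2:**
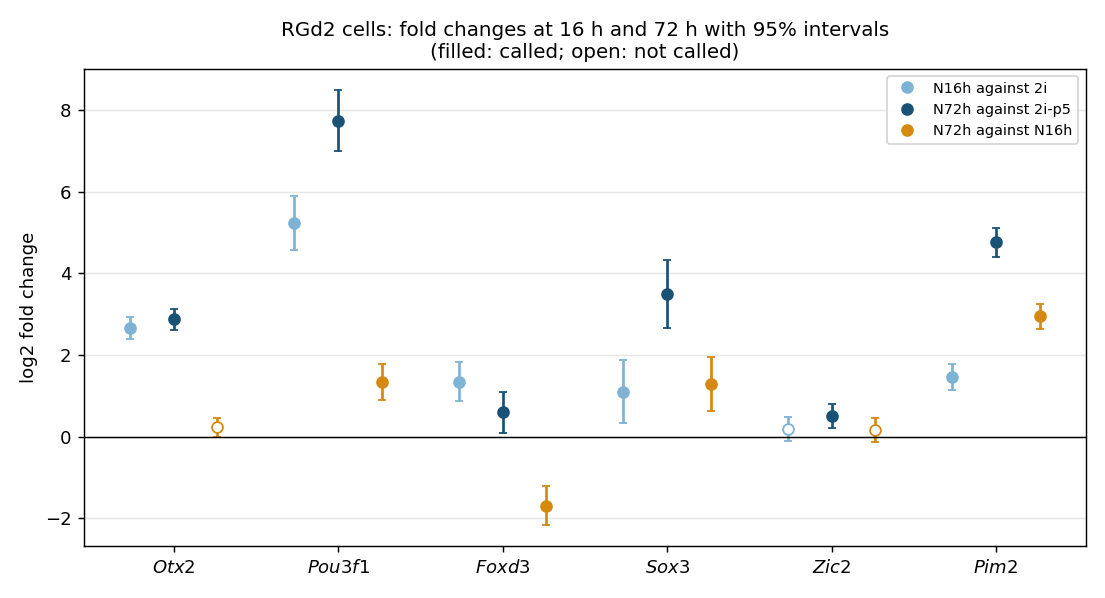
Log2 fold changes of the 6 genes in RGd2 cells with 95% intervals, for N16h against 2i, N72h against 2i-p5 and N72h against N16h (filled points called, open points not called). *Otx2* sits near its N72h value by N16h, *Pim2* gains most between N16h and N72h, and *Foxd3* falls in that interval.

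N72h and N16h were then compared directly, with the caution that their cells may have been expanded differently before 2i. *Pim2*, *Pou3f1* and *Sox3* were higher at N72h and *Foxd3* lower, beside 31.3% of tested genes called higher and 29.6% lower. *Pim2* differed most (log2 fold change 2.95 ± 0.15, edgeR adjusted p = 3.09e-19, 7.73-fold). *Pou3f1* gained 1.35 ± 0.22 (edgeR adjusted p = 1.83e-06) and *Sox3* 1.28 ± 0.33 (edgeR adjusted p = 0.00109). *Foxd3* fell by 1.69 on the log2 scale (SE 0.23, edgeR adjusted p = 6.5e-08), to 0.312 of its N16h mean. *Otx2* was higher in every N72h library, as were 36% of tested genes, but by only 0.23 (95% interval -0.01 to 0.46, edgeR adjusted p = 0.0951), and it passed with TMM scaling (0.0446). *Zic2* differed by 0.16 (edgeR adjusted p = 0.354). Inside libraries *Pim2* gained more than *Pou3f1* by 1.56, *Sox3* more than *Otx2* by 1.19 and *Zic2* more than *Foxd3* by 1.84, each without overlap, while *Pou3f1* was not separated from *Sox3* nor *Otx2* from *Zic2*.

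The other formative genes at N72h were 13 called higher and 0 lower of 16 against 2i-p5 (median log2 fold change 2.24, beside 0.09 over all tested genes), led by the growth factor gene *Fgf5* (5.37). Against N16h 7 were higher and 5 lower. All 9 naive markers were lower than in 2i-p5, with a summed FPKM of 58.0 to 62.4. Some markers of other cell types also moved at N72h. *Neurod1*, *Nes* and *Tubb3*, 3 of 8 neural markers, were called higher and the summed FPKM of the 8 was 81.7 to 96.9 against 23.8 to 26.5 in 2i-p5. *Sox1* and *Pax6* stayed under the FPKM minimum in this comparison and were not called, whereas both were called higher at N16h against 2i. Of 6 trophectoderm markers, *Krt8* and *Krt18* were called higher (summed FPKM of the 6 169.7 to 179.9 against 9.06 to 9.41), *Cdx2* was lower and *Elf5* had no count. Of 7 extraembryonic endoderm markers, *Gata4*, *Gata6* and *Dab2* were called higher (sum 5.22 to 15.7 against 0.535 to 0.905). The part of these cell types in the values of the 6 genes was not tested.

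The starting points of the 2 time courses were compared as well. Between 2i-p5 and 2i, *Foxd3* was lower in 2i-p5 (log2 fold change -0.94 ± 0.26, edgeR adjusted p = 0.00387) and the other 5 genes were not called, beside 2.89% of tested genes called higher and 49.4% lower (13.7% and 12.2% with TMM scaling). Relative to the median of all genes *Foxd3* differed by -0.59, and the call was lost with TMM scaling (adjusted p = 0.131) and without the clonal 2i-p5 library (0.0555). *Otx2* was nearly equal (0.01 ± 0.13, edgeR adjusted p = 0.964), although with TMM scaling it was called higher in 2i-p5 (0.37, adjusted p = 0.0278). *Sox3* (-1.11) and *Pou3f1* (-1.16) had low counts in both and did not pass.

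CHp2 cells, kept in CH without the MEK inhibitor, gave a different set from cells withdrawn from both inhibitors. The length of culture also differed between these cells. Passage differed between CHp2 and 2i-p5 along with the inhibitor, so the effects of inhibitor and passage cannot be told apart here. *Pou3f1*, *Pim2*, *Sox3* and *Otx2* were higher than in 2i-p5, *Foxd3* was lower and *Zic2* was not called, beside 28.6% of tested genes called higher and 13.6% lower (22.3% and 29.1% with TMM scaling). *Pou3f1* reached 438, 452 and 419 normalised counts (log2 fold change 5.86 ± 0.39, edgeR adjusted p = 9.85e-16). *Pim2* reached 2223, 2164 and 2378 (3.47 ± 0.17, edgeR adjusted p = 1.76e-19). *Sox3* reached 104, 173 and 131 (2.92 ± 0.42, edgeR adjusted p = 4.1e-07). *Otx2* rose less, to 927, 829.9 and 1134 (1.41 ± 0.13, edgeR adjusted p = 6.51e-12). For all 4 every CHp2 library was above every 2i-p5 library, beside 36.8% of tested genes. *Foxd3* fell to 65.9, 52.6 and 74.7 (-1.58 ± 0.31, edgeR adjusted p = 5.56e-05), its lowest level in any condition. *Zic2* was 1946, 1658 and 1657, and its log2 fold change of -0.10 had a 95% interval of -0.39 to 0.20. Inside libraries *Pou3f1* rose more than *Pim2*, and *Sox3*, *Otx2*, *Zic2* and *Foxd3* followed in that order without overlap, while *Pim2* and *Sox3* were not separated. Of the 16 other formative genes 15 were called higher and 0 lower, led by *Fgf8* (5.72), and all 9 naive markers were lower. The mesendoderm marker *T* (brachyury) also rose, and the summed FPKM of its 6-gene list was 70.4 to 74.2 against 8.95 to 10.1. Of 6 trophectoderm markers *Krt8*, *Krt18* and *Cdx2* were called higher (sum 85.2 to 124.5 against 9.06 to 9.41, *Elf5* at most 3 counts). Of the neural markers *Nes* was called higher and *Tubb3* lower (sum 21.3 to 22.9 against 23.8 to 26.5). The part of these markers' cell types in the values of the 6 genes was not tested.

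Deletion of *Rbpj*, the DNA-binding effector of Notch signaling, was examined in 2i and at N16h. In 2i, *Otx2* was higher and *Zic2* lower than in RGd2, beside 5.24% of tested genes called higher and 6.12% lower (10.9% and 7.54% with TMM scaling). *Otx2* had 639.7, 571 and 751 normalised counts, all above the RGd2 libraries (log2 fold change 0.87 ± 0.13, edgeR adjusted p = 3.55e-06). *Zic2* had 1641, 1096 and 1078, all below RGd2 (-0.73 ± 0.15, edgeR adjusted p = 0.000486). *Pou3f1* (8.42, 1.79 and 6.72) and *Sox3* (27.4, 12.5 and 20.2) were also below every RGd2 library, but at these low counts neither passed (edgeR adjusted p = 0.0675 and 0.15). Of tested genes 7.92% had every mutant library higher and 7.68% every one lower. *Foxd3* (-0.12) and *Pim2* (0.10) were not called. Clone c28 had the highest *Foxd3*, *Sox3* and *Zic2* of the 3 clones in 2i.

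At N16h the mutant had lower *Pou3f1*, *Foxd3*, *Otx2* and *Pim2* than RGd2. These 4 of 6 members called lower stood beside a background of 3.41% lower and 18.8% higher (10.8% and 14.8% with TMM scaling). *Pou3f1* was 143, 171 and 196 against 836, 627 and 436 in RGd2, or 26.8% of the control mean (log2 fold change -1.91 ± 0.24, edgeR adjusted p = 6.96e-08). *Foxd3* was 509.9, 406 and 546, or 52.8% (-0.92 ± 0.23, edgeR adjusted p = 0.00252). *Otx2* was 1590.2, 1444 and 1693, or 69.3% (-0.53 ± 0.12, edgeR adjusted p = 0.000755). *Pim2* was 493, 473 and 558, or 70.5% (-0.51 ± 0.15, edgeR adjusted p = 0.0144), and the adjusted p rose to between 0.0522 and 0.0775 when either parental RGd2 library or clone c28 or c33 was left out. For these 4 genes no mutant library reached the lowest control, beside 7.58% of tested genes. *Zic2* was at 78.5% (-0.35 ± 0.14, edgeR adjusted p = 0.0887) and was called with TMM scaling (-0.49, adjusted p = 0.0222) and without the clonal RGd2 library (-0.48, adjusted p = 0.0275). *Sox3* was 63.5, 105 and 64.9, within the control range, with a log2 fold change of -0.12 (95% interval -0.81 to 0.57).

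The rise within *Rbpj*-KO cells was tested next. From 2i to N16h, *Pou3f1* (log2 fold change 5.03 ± 0.42), *Sox3* (2.03 ± 0.41), *Otx2* (1.27 ± 0.12), *Pim2* (0.85 ± 0.16) and *Zic2* (0.57 ± 0.15) rose, with edgeR adjusted p between 1.41e-12 and 0.00297, beside 11.6% of tested genes called higher and 16.3% lower. *Foxd3* changed by 0.54 (95% interval 0.07 to 1.02, edgeR adjusted p = 0.093), and its groups overlapped. With the clonal line as a block *Foxd3* was called (0.58, adjusted p = 0.0435), and without the 2i library of clone c28 it was 0.88 (adjusted p = 0.00731). Inside libraries *Pou3f1* rose more than *Sox3* by 3.04 and *Otx2* more than *Pim2* by 0.42 without overlap, and *Sox3* and *Otx2* were not separated.

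A test of the difference between the mutant and the RGd2 response called *Otx2* alone among the 6. Its rise was smaller in *Rbpj*-KO by 1.40 on the log2 scale (response difference -1.40 ± 0.17, 95% interval -1.74 to -1.05, edgeR adjusted p = 7.12e-07), beside 0.238% of tested genes called lower and 3.79% higher in this contrast (1.18% and 2.59% with TMM scaling). The 2i level was higher and the N16h level lower than in RGd2, and both enter this difference. *Pou3f1* rose 34-fold in RGd2 and 30.1-fold in the mutant (difference -0.21, edgeR adjusted p = 0.916). Its raw counts in 2i were only 4, 2 and 8 in the mutant and 20, 18 and 6 in RGd2. Whether its low N16h level was already present in 2i therefore cannot be told. *Foxd3* (-0.80, edgeR adjusted p = 0.214), *Pim2* (-0.61, edgeR adjusted p = 0.148), *Zic2* (0.38) and *Sox3* (0.93) were not called. *Foxd3* was called without the clonal RGd2 2i library (-1.16, adjusted p = 0.0118) and *Pim2* with TMM scaling (-0.84, adjusted p = 0.0414).

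Of the 16 other formative genes in *Rbpj*-KO at N16h, 8 were called lower and 1 higher (median log2 fold change -0.73 beside 0.14 over all tested genes). The Wnt effector *Lef1* fell most (-3.99) and *Etv4* was higher (1.16). In 2i 6 were already lower, *Lef1* by the largest difference (-5.17), and 2 higher, led by *Etv4* (2.22). Of 9 naive markers 6 were called higher at N16h, with a summed FPKM of 608 to 666. *Krt8* and *Krt18* were called higher at N16h (trophectoderm sum 17.5 to 25.4 against 5.71 to 6.83, *Elf5* at most 1 count), *Sox1*, *Pax6* and *Nes* were called higher (neural sum 32.7 to 33.8 against 18.0 to 21.9), and the extraembryonic endoderm sum was 1.27 to 10.6 against 0.725 to 2.22. Their part in the 6 genes' values was not tested.

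**Figure D3:**
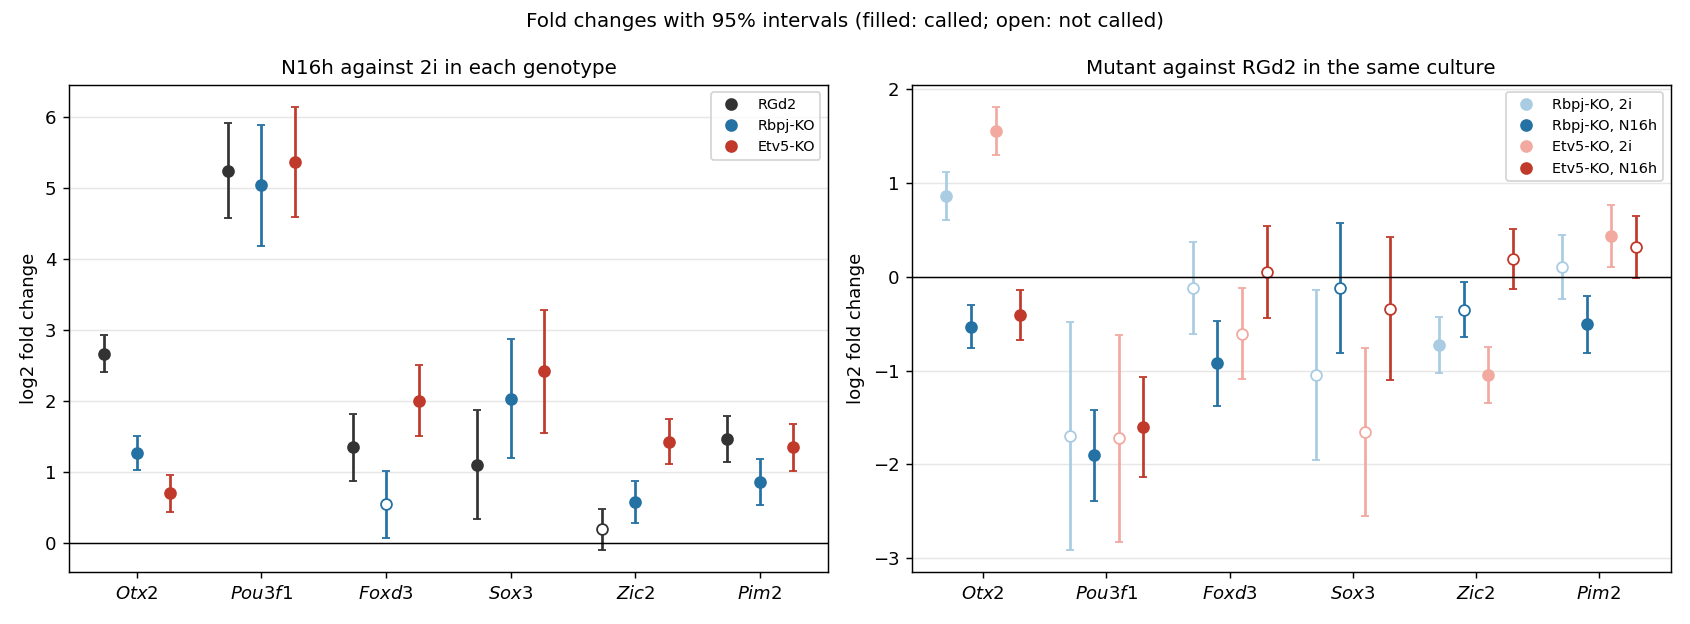
Log2 fold changes with 95% intervals for N16h against 2i in RGd2, *Rbpj*-KO and *Etv5*-KO (left) and for each mutant against RGd2 in 2i and at N16h (right), filled where called. *Otx2* is above RGd2 in 2i and below it at N16h in both mutants, and *Pou3f1* is lower at N16h in both.

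*Etv5*-KO cells lack an ETS factor that acts downstream of FGF and ERK signaling. In 2i, *Otx2* and *Pim2* were higher than in RGd2 and *Zic2* lower, beside 6.14% of tested genes called higher and 27.9% lower (18.1% and 14.7% with TMM scaling). *Otx2* was 1032, 1143 and 998 against at most 403 in RGd2 (log2 fold change 1.56 ± 0.13, edgeR adjusted p = 1.2e-12), which in RGd2 cells was reached only in CHp2 and after withdrawal. *Zic2* was 1134, 975 and 931, all below RGd2 (-1.05 ± 0.15, edgeR adjusted p = 5.7e-07). Of tested genes 6.68% had every mutant library higher and 21.5% every one lower. *Pim2* was 404, 334 and 322 (0.44 ± 0.16, edgeR adjusted p = 0.0412), and its adjusted p rose to between 0.051 and 0.226 without any of 4 libraries (the second parental and the clonal RGd2 library, c16 and c17). *Pou3f1* (5.57, 2.53 and 6.31) and *Sox3* (13.2, 10.98 and 12.6) passed the test (edgeR adjusted p = 0.0157 and 0.00431) but lay below the FPKM minimum in both groups and were not called. Without the first parental 2i library *Sox3* reached that minimum and was called (-1.87, adjusted p = 0.00672). *Foxd3* was 285, 232 and 199.9 (-0.61 ± 0.24, edgeR adjusted p = 0.0543), and it passed with DESeq2 (0.0443), without c16 (0.0374) and without the second parental RGd2 library (0.0219).

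At N16h *Pou3f1* and *Otx2* were lower than in RGd2, beside 3.24% of tested genes called lower and 29.3% higher (12.3% and 16.6% with TMM scaling). *Pou3f1* was 150.4 and 266, or 32.9% of the control mean (log2 fold change -1.60 ± 0.26, edgeR adjusted p = 9.9e-06). *Otx2* was 1546 and 1885, or 75.4% (-0.41 ± 0.13, edgeR adjusted p = 0.017). Neither mutant library reached the lowest control for these 2 genes, beside 7.62% of tested genes. The *Otx2* call was lost without either parental RGd2 library (adjusted p = 0.0605 and 0.0574) and without c17 (-0.27, adjusted p = 0.276). *Foxd3* was 888 and 1029, close to RGd2 (0.05, 95% interval -0.44 to 0.54). *Pim2* was 883 and 917, above every RGd2 library, as were 56.9% of tested genes, but not called (0.32, 95% interval -0.01 to 0.65, edgeR adjusted p = 0.154). *Zic2* (0.19, edgeR adjusted p = 0.418) and *Sox3* (-0.34, edgeR adjusted p = 0.56) were not called either.

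All 6 genes rose from 2i to N16h in *Etv5*-KO, beside 31.3% of tested genes called higher and 9.47% lower (20.0% and 24.9% with TMM scaling). *Otx2*, second of 6 in RGd2, was last here (log2 fold change 0.70 ± 0.13, edgeR adjusted p = 2.96e-05), and inside libraries it rose less than *Pim2* by 0.66 without overlap. *Pou3f1* led again (5.36 ± 0.38), followed by *Sox3* (2.42 ± 0.43), *Foxd3* (2.00 ± 0.25), *Zic2* (1.43 ± 0.16) and *Pim2* (1.35 ± 0.16). *Pou3f1* and *Sox3*, *Sox3* and *Foxd3*, and *Foxd3* and *Zic2* were separated within libraries, and *Zic2* and *Pim2* were not. The exact permutation p of the separated steps was 0.1, the smallest that 2 against 3 libraries allow, except 0.2 for *Sox3* and *Foxd3*.

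The response difference from RGd2 was negative for *Otx2* (-1.96 ± 0.18, edgeR adjusted p = 1.28e-10) and positive for *Zic2* (1.24 ± 0.21, edgeR adjusted p = 3.84e-05), beside 0.531% of tested genes called lower and 36.7% higher (4.58% and 8.53% with TMM scaling). The median gene differed by 0.44, so relative to it *Zic2* stood at 0.80 and *Otx2* at -2.40. The difference for *Otx2* is made up of 1.56 in 2i and -0.41 at N16h, and that for *Zic2* of -1.05 and 0.19. *Sox3* (1.31, edgeR adjusted p = 0.0827, and 0.0367 without the first parental N16h library), *Foxd3* (0.66), *Pim2* (-0.12) and *Pou3f1* (0.12, 95% interval -0.95 to 1.18) were not called.

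The 2 single mutants were compared directly at N16h. *Foxd3* (log2 fold change 0.97 ± 0.25, edgeR adjusted p = 0.00457), *Pim2* (0.83 ± 0.17, edgeR adjusted p = 0.000347) and *Zic2* (0.54 ± 0.16, edgeR adjusted p = 0.0163) were higher in *Etv5*-KO than in *Rbpj*-KO, beside 12.4% of tested genes called higher and 5.56% lower (13.1% and 12.5% with TMM scaling). The *Foxd3* call was lost without *Etv5*-KO c1 (0.86, adjusted p = 0.0858), and the *Zic2* call without c1 (0.38, adjusted p = 0.327), without *Rbpj*-KO c36 (0.0693) and with TMM scaling (0.0638). *Pou3f1* (0.30, edgeR adjusted p = 0.525), *Otx2* (0.12, edgeR adjusted p = 0.61) and *Sox3* (-0.22, edgeR adjusted p = 0.783) were not called.

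Among the other formative genes in *Etv5*-KO, 9 were called lower and 2 higher of 16 at N16h (median log2 fold change -0.50 beside 0.23 over all tested genes), with *Lef1* again lowest (-2.32) and *Etv4* highest (0.78). In 2i 11 were lower and 1 higher. All 9 naive markers were called higher at N16h, with a summed FPKM of 804 to 860.2. Of 6 trophectoderm markers, only *Krt8* and *Krt18* were called higher and 0 lower (sum 18.0 to 19.3 against 5.71 to 6.83). Of 8 neural markers, *Tubb3* was called higher and *Pax6* lower (sum 25.2 to 25.3 against 18.0 to 21.9). *Eomes* was called higher among 6 mesendoderm markers (sum 3.32 to 3.61 against 1.70 to 2.22). The part of these markers' cell types in the 6 genes' values was not tested.

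ER-dKO cells were kept in CH at passage 5, which RGd2 cells were measured in only at passage 2, so genotype and passage cannot be told apart in this comparison. *Pou3f1*, *Sox3* and *Pim2* were lower than in RGd2 CHp2, *Foxd3* and *Zic2* higher, and *Otx2* was not called, beside 28.3% of tested genes called higher and 21.3% lower. *Pou3f1* was 5.36, 7.11 and 10.5, or 1.76% of the CHp2 mean (log2 fold change -5.85 ± 0.33, edgeR adjusted p = 6.15e-18). *Sox3* was 6.70, 5.24 and 0, or 2.93% (-4.95 ± 0.45, edgeR adjusted p = 5.56e-12). The library labelled ERc9 held the 0. *Pim2* was 354.6, 350.5 and 364, or 15.8% (-2.66 ± 0.16, edgeR adjusted p = 1.6e-17). *Foxd3* was 132, 159.7 and 142.5 (1.20 ± 0.30, edgeR adjusted p = 0.000978) and *Zic2* 2392, 2369 and 2521 (0.47 ± 0.14, edgeR adjusted p = 0.00715), both above every CHp2 library. For the 3 lower genes every library was below CHp2, and among tested genes 38% were separated upwards and 26.5% downwards. *Otx2* was 973, 992 and 913, at 99.5% of CHp2 (95% interval of the log2 fold change -0.24 to 0.24). Without the library labelled ERc9 the same 5 genes were called, with log2 fold changes of -6.06, -4.54, -2.68, 1.20 and 0.44 in the order above, and *Otx2* was at 0.03. Their means were then 1.43% (*Pou3f1*), 4.39% (*Sox3*) and 15.6% (*Pim2*) of CHp2.

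Against RGd2 2i-p5, *Otx2* (log2 fold change 1.41 ± 0.13, edgeR adjusted p = 7.8e-12), *Pim2* (0.81 ± 0.17, edgeR adjusted p = 0.000183) and *Zic2* (0.37 ± 0.14, edgeR adjusted p = 0.0416) were higher in ER-dKO, beside 33.9% of tested genes called higher and 8.43% lower (22.3% and 20.1% with TMM scaling). Without the library labelled ERc9, *Otx2* (1.44) and *Pim2* (0.79) were called and *Zic2* was not (0.34, adjusted p = 0.115). *Zic2* also lost its call with TMM scaling (0.17, adjusted p = 0.428) and when any other of the 6 libraries was left out (adjusted p = 0.0621 to 0.129). *Pou3f1* (0.01, edgeR adjusted p = 0.999) and *Foxd3* (-0.38, edgeR adjusted p = 0.249) were not called. *Sox3* was below every 2i-p5 library (-2.03, edgeR adjusted p = 0.0045), as were 13.1% of tested genes, but under the FPKM minimum. Without the library labelled ERc9, *Sox3* was at -1.62 (edgeR adjusted p = 0.0217), *Pou3f1* at -0.21 and *Foxd3* at -0.38, none of them called. *Otx2* thus had the largest upward difference of the 6 against 2i-p5. Inside libraries it exceeded that of *Pim2* by 0.57, and *Pim2* exceeded *Zic2* by 0.47, with no overlap, also without the library labelled ERc9. In RGd2 *Pou3f1* led at N16h, N72h and CHp2. Genotype and medium differ together between ER-dKO and 2i-p5, and ER-dKO was not measured in 2i. These values are therefore not an order of rise within ER-dKO.

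The other formative genes in ER-dKO were 13 called lower and 1 higher of 16 against CHp2, where *Fgf8* fell most (-6.82) and *Etv4* was higher (1.98). Against 2i-p5 5 were higher and 4 lower, led by *Etv4* (7.63) and *Lef1* (-3.62). All 9 naive markers were called higher than in CHp2, with a summed FPKM of 795 to 811 against 286 to 323. These counts were the same without the library labelled ERc9, as was the range of the sum. Against 2i-p5, 4 naive markers were called higher and 2 lower, and without that library 3 were higher and 2 lower. Some markers of other cell types also differed from CHp2. *Krt8*, *Krt18* and *Cdx2* were called lower (trophectoderm sum 11.9 to 13.7 against 85.2 to 124.5), *T* lower and *Eomes* higher (mesendoderm sum 14.7 to 16.4 against 70.4 to 74.2), and *Nes* lower and *Tubb3* higher (neural sum 22.0 to 24.5 against 21.3 to 22.9). Their part in the 6 genes' values was not tested.

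ETR-tKO cells grew in N2B27 with no inhibitor at passage 5. Against RGd2 2i-p5, *Pou3f1*, *Pim2*, *Otx2*, *Foxd3* and *Zic2* were higher and *Sox3* was not called, beside 37.7% of tested genes called higher and 9.53% lower (23.7% and 26.2% with TMM scaling). *Pou3f1* had 258, 93.5 and 127 normalised counts (log2 fold change 4.44 ± 0.41, edgeR adjusted p = 1.35e-11), all above the 7.89 that was the most in 2i-p5. *Pim2* had 1591, 874 and 964 (2.49 ± 0.17, edgeR adjusted p = 1.7e-15). The library of clone (ETc1)Rc53 was the highest of the 3 for *Pou3f1*, *Pim2*, *Sox3* and *Otx2*, and the lowest for *Foxd3*. *Otx2* had 1235, 1083 and 1213 (1.70 ± 0.13, edgeR adjusted p = 3.18e-14) and *Foxd3* 374.5, 456 and 465 (1.18 ± 0.25, edgeR adjusted p = 0.000166). *Zic2* had 2503, 2621 and 2486 (0.44 ± 0.14, edgeR adjusted p = 0.0148), a call lost with TMM scaling (0.19, adjusted p = 0.351) and without the clonal 2i-p5 library (0.0562). For these 5 genes no library overlapped 2i-p5, beside 45.9% of tested genes with every library higher. *Sox3* had 38.2, 11.8 and 29.5 and overlapped 2i-p5 (0.61, 95% interval -0.31 to 1.53). Without clone (ETc1)Rc53 the same 5 genes were called, *Pou3f1* at 3.88 and *Pim2* at 2.17. Against RGd2 2i instead of 2i-p5, *Foxd3* (0.24, adjusted p = 0.449) and *Zic2* (0.28, adjusted p = 0.131) lost their calls, and *Pou3f1* was at 3.28. Inside libraries the upward difference was larger for *Pou3f1* than for *Pim2* (by 1.74) and for *Pim2* than for *Otx2* (by 0.76). Neither step overlapped, and later neighbours were not separated. Genotype and medium differ together in this comparison, and ETR-tKO was not measured in 2i. Against RGd2 2i *Pim2* and *Otx2* overlapped (0.35, exact permutation p = 0.3).

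ETR-tKO cells were also set against RGd2 cells 16 h and 72 h out of 2i, with passage and time out of 2i differing along with genotype. Against N16h, *Pou3f1* (log2 fold change -1.96 ± 0.23, edgeR adjusted p = 4.47e-09), *Sox3* (-1.60 ± 0.36, edgeR adjusted p = 0.000393), *Foxd3* (-1.10 ± 0.22, edgeR adjusted p = 0.000103) and *Otx2* (-0.95 ± 0.12, edgeR adjusted p = 9.8e-09) were lower, beside 14.5% of tested genes called lower and 31.0% higher (26.6% and 29.3% with TMM scaling). These 4 stood at between 25.2% and 51.7% of the N16h means. *Pim2* was higher (0.67 ± 0.15, edgeR adjusted p = 0.000283), which shrank to 0.35 (adjusted p = 0.0325) without clone (ETc1)Rc53, and *Zic2* was not called (0.09, 95% interval -0.20 to 0.37).

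Against N72h, *Pou3f1* (-3.31 ± 0.24), *Sox3* (-2.88 ± 0.36), *Pim2* (-2.28 ± 0.15) and *Otx2* (-1.18 ± 0.12) were lower, with edgeR adjusted p between 2.8e-16 and 1.07e-08, beside 23.6% of tested genes called lower and 35.5% higher. *Pou3f1* was at 9.87%, *Sox3* at 13%, *Pim2* at 20.5% and *Otx2* at 44.2% of the N72h mean. *Foxd3* was higher (0.59 ± 0.23, edgeR adjusted p = 0.0322), a call lost with TMM scaling (0.0924), with DESeq2 (0.0596) and without any of 4 libraries (0.0755 to 0.124, the first parental and the clonal N72h library and clones (Tc1)ERc2 and (Tc1)ERc10). *Zic2* was not called (-0.07, edgeR adjusted p = 0.691).

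The other formative genes in ETR-tKO were 8 called higher and 2 lower of 16 against 2i-p5, where *Etv4* (7.70) and *Lef1* (-4.17) were the extremes. Against N16h 1 was higher and 10 lower, and against N72h 3 higher and 10 lower. The naive markers had a summed FPKM of 793 to 864, and 7 of 9 were called higher than at N16h. *Pax6*, *Neurod1*, *Nes* and *Tubb3* were called higher than in 2i-p5 among 8 neural markers. *Sox1* passed the test upward but lay under the FPKM minimum and was not called. Against N72h, *Gata4*, *Gata6* and *Dab2* were called lower (extraembryonic endoderm sum 1.62 to 2.20 against 5.22 to 15.7), as were *Krt8* and *Krt18* (trophectoderm sum 13.8 to 16.2 against 169.7 to 179.9). *Nes* and *Neurod1* were lower and *Pax6* and *Tubb3* higher (neural sum 69.1 to 72.7 against 81.7 to 96.9), and *Eomes* was higher. Their part in the 6 genes' values was not tested.

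**Figure D4:**
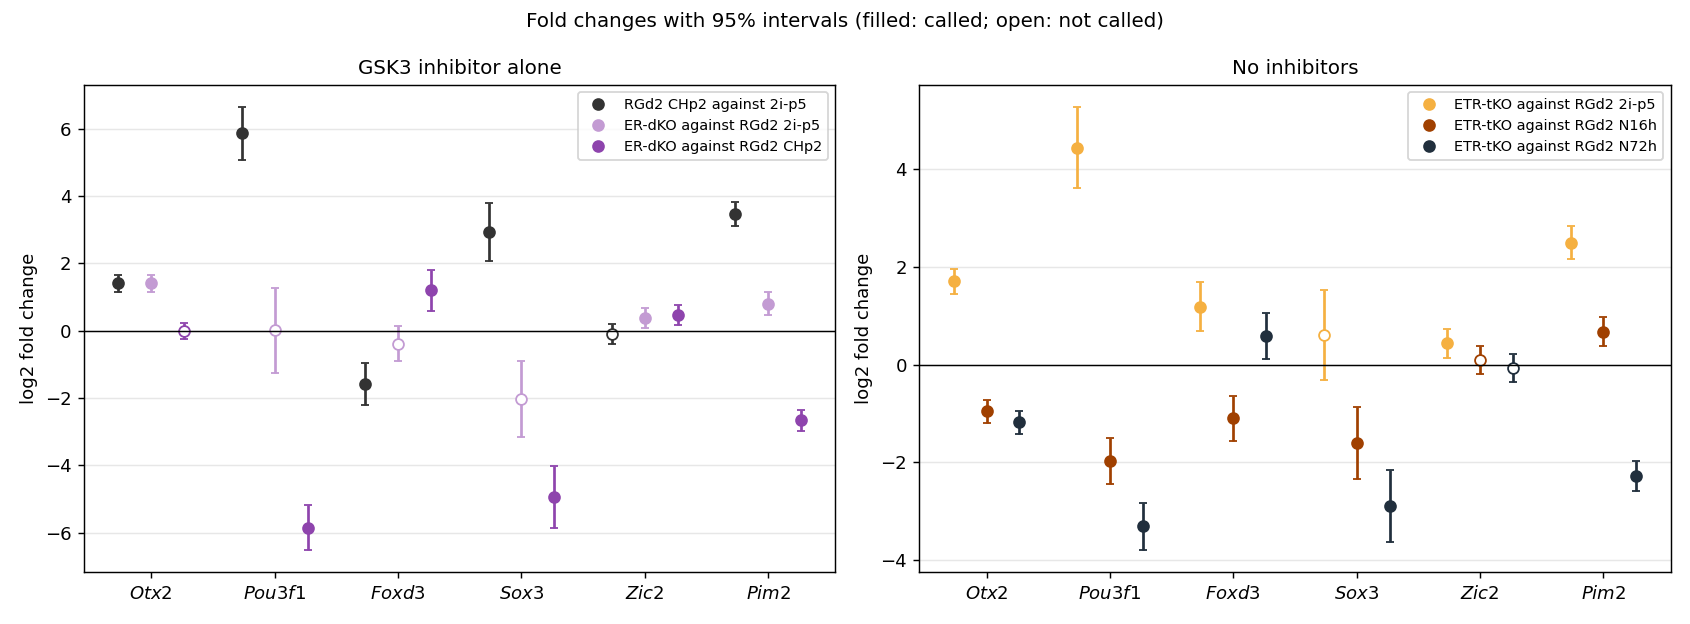
Log2 fold changes with 95% intervals for RGd2 CHp2 and ER-dKO (left) and for ETR-tKO against RGd2 2i-p5, N16h and N72h (right), filled where called. In ER-dKO *Otx2* lies at the CHp2 level while *Pou3f1*, *Sox3* and *Pim2* are far below it, and in ETR-tKO all but *Zic2* and *Foxd3* lie below N72h.

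Relatives of the 6 genes varied in their patterns. *Otx1*, *Pou3f2*, *Pou3f3*, *Pou3f4*, *Foxd1*, *Foxd2*, *Foxd4*, *Zic1* and *Zic4* stayed below an FPKM of 1 in every condition. *Zic5*, unlike *Zic2*, was called higher at N16h (log2 fold change 0.85), and its mean FPKM in 2i, N16h and N72h was 11.02, 22.7 and 28.2. It was lower in *Etv5*-KO in 2i (-1.01), as *Zic2* was. *Sox2*, a pluripotency factor, was at 129, 101 and 34.0 FPKM in the same 3 cultures, opposite to *Sox3*. *Sox1* was called higher at N16h (3.03) and lower at N72h than at N16h (-1.49). *Pim1* was lower (-1.10) and *Pim3* higher (0.70) at N72h than in 2i-p5, both with far smaller changes than *Pim2*.

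Likeness was measured by Pearson's r of log2(normalised count + 1) over the 32 libraries, which share conditions, so r is given as a description. Among the 6 genes *Pim2* and *Pou3f1* were most alike (0.86), then *Pou3f1* and *Sox3* (0.805), *Otx2* and *Pou3f1* (0.736) and *Otx2* and *Pim2* (0.705), and *Foxd3* and *Pim2* least (-0.0845). The genes outside the set most like *Otx2* were *Nptxr* (0.870), *Trio* (0.864) and *Nav2* (0.855). For *Pou3f1* they were *Pcdh1* (0.961), *Ptpru* (0.948) and *Thbs1* (0.944), and for *Pim2* *Dbn1* (0.959), *Tpm2* (0.955) and *Megf6* (0.953). *Foxd3* was nearest to *Sall1* (0.920), *Ppp2r2d* (0.891) and *Slc7a3* (0.876), and *Sox3* to *Samd4* (0.911), *Fzd3* (0.904) and *Lin28b* (0.887), an RNA-binding protein gene on the formative list. *Zic2*, which varied least, was nearest to *Isyna1* (0.857), *2610307P16Rik* (0.825) and *Pla2g6* (0.807).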

How the data were processed

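The authors depleted ribosomal RNA (the labels' molecule field reads polyA RNA), added ERCC spike-ins, ran Trim Galore and TopHat2 (GRCm38/mm10 plus spike-ins, guided by Gencode models), and counted unique primary alignments by strand with featureCounts. The deposited values are raw counts per gene for 32 libraries, with no normalization. From these counts, size factors were computed here as medians of ratios over 52 of 92 spike-ins above 0 in every library, and FPKM on counts assigned to genes. Low counts were filtered with filterByExpr (edgeR 4.0.16, R 4.3.3), and 1 quasi-likelihood model with a coefficient per condition gave two-sided tests, adjusted by Benjamini-Hochberg over 18892 genes. A call required, in addition to an adjusted p below 0.05, that 1 of the groups averaged 1 FPKM or more. SE is the absolute log2 fold change over the root of F, which is unstable where both are near 0. No interval is therefore given for *Pou3f1* in the *Rbpj*-KO response difference. Orders of rise used log2 ratios within libraries with a count of 0.5 added.

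The 6 genes and the lists were chosen with earlier results of these data known. The 6 are named in every comparison, with the 3 genes most like each, fixed family members, and the extremes called in the formative list. Alternatives were TMM and gene median-of-ratios scaling, no low-count filter, no FPKM minimum, DESeq2 1.42.0, only the libraries compared, the clonal line as block, another baseline, and each library left out. The orders of rise on that baseline, and the order, lists and shares of ER-dKO without the library labelled ERc9, were added after seeing the data. The lines pair 2i with N16h within a genotype because they are the same lines. Same-line deviations correlated at -0.000789, 0.0522 and 0.113 in *Rbpj*-KO, at 0.00147 and -0.0591 in *Etv5*-KO and at 0.108 or above in the clonal RGd2 line. Scripts were tested on simulated data. The deposited spike-in and gene counts limit precision for *Pou3f1* and *Sox3* most.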

Additional observations from a re-analysis of the deposited data

Results flagged for a closer look

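The response to withdrawal of the inhibitors (N16h against 2i) differed from that of RGd2 for *Otx2* in both single mutants and for *Zic2* in *Etv5*-KO, each by a test of the difference itself. For *Otx2* the response difference was -1.40 (log2) in *Rbpj*-KO and -1.96 in *Etv5*-KO, and for *Zic2* it was 1.24 in *Etv5*-KO. Of tested genes 0.238% were called lower and 3.79% higher in the *Rbpj*-KO contrast. In the *Etv5*-KO contrast 0.531% were called lower and 36.7% higher (4.58% and 8.53% with TMM scaling), and the median gene differed by 0.44. The 3 calls kept their direction with TMM and gene median-of-ratios scaling. The mutants' 2i levels, higher for *Otx2* and lower for *Zic2* than in RGd2, enter each value, and the cause was not tested.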

How the results depend on the processing

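Most log2 fold changes of the 6 genes kept their direction and their side of the threshold: 97 of 114 with TMM scaling and 111 with DESeq2. The number of the 6 genes called changed by over 1.5 times in a few cases. For *Etv5*-KO in 2i it was 5 without an FPKM minimum (3 as reported). For the *Rbpj*-KO response difference it was 2 (1 as reported) with TMM, with gene median-of-ratios and without the low-count filter, and for the *Etv5*-KO response difference 4 (2 as reported) without that filter. Leaving out 1 library gave 0 to 1 for 2i-p5 against 2i, 1 to 2 for the *Rbpj*-KO response difference and for *Etv5*-KO at N16h against RGd2, and 1 to 3 for *Etv5*-KO against *Rbpj*-KO at N16h.

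Some log2 fold changes near 0, not called either way, reversed, with TMM and gene median-of-ratios scaling respectively: 2i-p5 against 2i *Zic2* 0.15 and 0.14, *Pim2* 0.018 and 0.015; *Etv5*-KO at N16h *Foxd3* -0.18 and -0.19, *Zic2* -0.042 and -0.051; *Etv5*-KO response difference *Pou3f1* -0.38 and -0.39; ER-dKO against 2i-p5 *Pou3f1* -0.18 and -0.19; ETR-tKO against N16h *Zic2* -0.014 and -0.039. With RGd2 2i in place of 2i-p5, *Foxd3* at N72h was -0.35, a called value that reversed, and *Sox3* in ETR-tKO -0.50. Leaving out 1 library gave ranges across 0: 2i-p5 against 2i *Otx2* -0.058 to 0.13, *Zic2* -0.30 to 0.074; *Rbpj*-KO in 2i *Foxd3* -0.46 to 0.23, *Pim2* -0.019 to 0.28; *Rbpj*-KO at N16h *Sox3* -0.42 to 0.21; *Etv5*-KO at N16h *Foxd3* -0.10 to 0.20; response differences *Pou3f1* -0.71 to 0.19 (*Rbpj*-KO) and -0.35 to 0.46 (*Etv5*-KO), *Pim2* -0.28 to 0.0036 (*Etv5*-KO); ER-dKO *Pou3f1* -0.21 to 0.16 against 2i-p5, *Otx2* -0.11 to 0.14 against CHp2; ETR-tKO against N16h *Zic2* -0.034 to 0.19; *Etv5*-KO against *Rbpj*-KO at N16h *Otx2* -0.027 to 0.26, *Pou3f1* -0.17 to 0.65, *Sox3* -0.36 to 0.046. The causes were not tested.

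The clonal line was used as a replicate block in 8 of 19 comparisons. These were the comparisons within a genotype, except 2i-p5 against 2i, and the response differences. The comparisons of mutants with RGd2 or with each other in 1 culture, and those of ER-dKO and ETR-tKO, were not blocked. With the block, *Foxd3* in *Rbpj*-KO from 2i to N16h was called (0.58, edgeR adjusted p = 0.0435), and no other call in the 8 comparisons changed. *Pou3f1* in ER-dKO against 2i-p5 could not be fitted on only the libraries compared.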
